A study of Homo sapiens with 2 samples.

Results

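ATF4, CHOP and the C/EBP factors are basic leucine zipper (bZIP) transcription factors of the integrated stress response, described here with TRIB3, NUPR1 and CHAC1, 3 genes that they induce. The members are the 10 genes ATF4, ATF3, ATF5, DDIT3, CEBPB, CEBPD, CEBPG, TRIB3, NUPR1 and CHAC1, chosen by name, out of 19775 genes on the array. They were covered by 18 of the 41097 probe sets that the platform annotation ties to exactly 1 gene symbol. The study set CL1-5 cells, a highly invasive human lung adenocarcinoma line, exposed for 24 h to 0.11 µM analogue 3 against the same line exposed for 24 h to the solvent DMSO. Analogue 3 is derived from desmosdumotin C, a natural product, and carries iodo, tripropyl and methoxy groups. The comparison asked which transcripts differed after treatment. Each group was 1 Affymetrix Human Genome U133 Plus 2.0 array of 1 culture of 1 cell line, so the differences below are not backed by replicates and carry no p-value.

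In the integrated stress response, kinases that sense amino acid shortage, endoplasmic reticulum stress, double-stranded RNA or haem deficiency phosphorylate the initiation factor eIF2. Bulk translation then slows, while the ATF4 mRNA is translated more efficiently because of short upstream reading frames. ATF4 protein pairs with C/EBP factors on composite DNA elements, and it switches on amino acid synthesis and transport genes together with DDIT3, ATF3, TRIB3 and CHAC1. The arrays measured mRNA of whole cultures, so the protein level of ATF4 was not measured, and fewer cells with a transcript cannot be told apart from less RNA per cell.

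Intensities are given as deposited, on a linear scale on which the median probe set of each array equals 1. A floor was set at 8 times that median (3 on the log2 scale), which 26.0% of all probe sets reached with analogue 3 and 26.8% with DMSO. A gene that reached the floor on either array was taken as measured, and 8523 genes were. Differences are log2 values of analogue 3 minus DMSO after lower values were raised to the floor, and a fold with 1 array under the floor is written as "at least". The spread between different probe sets of 1 gene had an SD of 0.23 on the log2 scale over 2874 genes, and it does not cover error between cultures, RNA extracts or hybridisations. The median difference over all measured genes was -0.05. Of 6 epithelial markers, KRT18 (457.9 with analogue 3 and 460.8 with DMSO) and KRT8 (77.8 with analogue 3 and 42.3 with DMSO) reached the floor on both arrays, whereas EPCAM and CDH1 lay below the array median. All 5 markers of differentiated lung epithelium were under the floor on both arrays, as were all leukocyte and fibroblast markers, and of 4 endothelial markers PECAM1 alone reached it, at 15.7 with analogue 3 and 11.4 with DMSO.

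All 10 members had a lower intensity with analogue 3 in the probe set that represents them, the brightest one of the gene, and all 10 were measured. Of these, 6 were at least 2-fold lower (DDIT3, TRIB3, ATF3, CEBPG, CHAC1 and ATF4), against 3.92% of all measured genes, and 0 were at least 2-fold higher, against 3.74%. A difference below 0 was found for 55.5% of all measured genes. The median difference over the 10 members was -1.30, from -2.90 for DDIT3 to -0.47 for ATF5. ATF3, NUPR1 and CHAC1 were measured only through the DMSO array, so a lower value with analogue 3 was fixed for them by the filter. Of the other 7 members, which both arrays measured at 8 or more, 4 were at least 2-fold lower, against 3.46% of the genes measured in that way, and their median was -1.09.

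**Figure D1:**
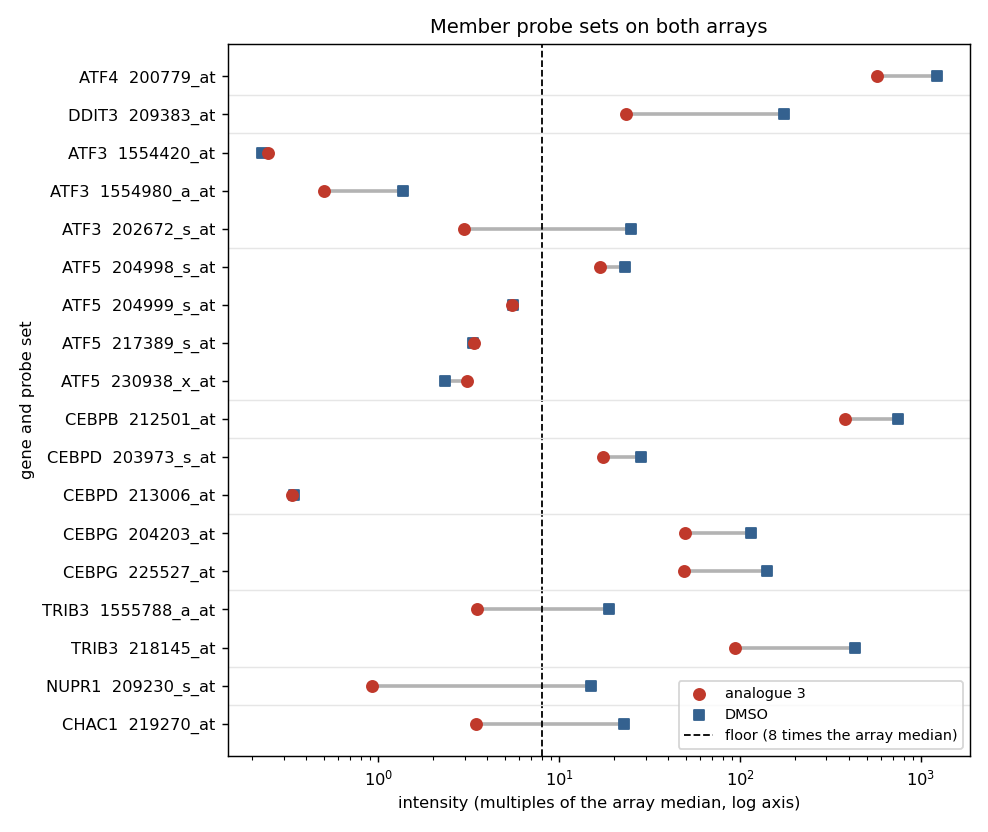
Intensity of each of the 18 member probe sets on the analogue 3 array (circles) and the DMSO array (squares), in multiples of the array median on a log axis, with the floor of 8 as a dashed line. In 15 of the 18 probe sets the analogue 3 value lies left of the DMSO value, and the widest gap is that of NUPR1, at 0.925 with analogue 3 and 15.05 with DMSO.

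ATF4, the factor at the head of the group, had an intensity of 572.6 with analogue 3, against 1220 with DMSO, in its only probe set. The mRNA was thus 2.13-fold lower, a difference of -1.09, which is past the 2-fold threshold by less than the SD of 0.23 between probe sets. Both values were far above the floor of 8, so the ATF4 transcript was lower in the treated cells but clearly detected there.

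DDIT3 encodes CHOP, a C/EBP-like factor that pairs with other C/EBP proteins and is linked to cell death under prolonged stress. Its intensity was 23.3 with analogue 3, against 174.3 with DMSO, which was 7.48-fold lower, a difference of -2.90. Of the 8523 measured genes, 6 had a lower difference, so DDIT3 stood at rank 7. The stretch of 250 bases before the outermost annotated DDIT3 start is shown because it holds, in capitals, the spacing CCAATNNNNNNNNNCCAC of an endoplasmic reticulum stress element, 97 bases before that start (RefSeq, GRCh38.p14, minus strand, chr12:57520518-57520767).
DDIT3: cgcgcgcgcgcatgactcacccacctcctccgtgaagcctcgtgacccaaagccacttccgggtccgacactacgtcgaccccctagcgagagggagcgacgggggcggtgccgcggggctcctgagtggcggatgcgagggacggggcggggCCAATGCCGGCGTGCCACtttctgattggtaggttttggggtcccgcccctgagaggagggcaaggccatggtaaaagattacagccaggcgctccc
This spaced motif was chosen after the promoter had been read, and it occurs on either strand in 0.316% of 35116 promoter windows of 300 bases.

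ATF3, a stress-induced factor that often represses transcription, had an intensity of 2.97 with analogue 3, against 24.9 with DMSO, in its brightest probe set. Only the DMSO array reached the floor, so ATF3 was at least 3.11-fold lower. Its other probe sets were far under the floor, at 0.500 with analogue 3 and 1.36 with DMSO in one, and at 0.246 with analogue 3 and 0.227 with DMSO in the other. The direction for ATF3 thus rests on 1 probe set, of a type (_s_at) that can bind several transcripts.

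ATF5, a relative of ATF4 whose mRNA is also translated under stress, differed least among the members. Its brightest probe set read 16.7 with analogue 3 and 23.2 with DMSO, a 1.39-fold lower value and a difference of -0.47. The other 3 probe sets of ATF5 were under the floor on both arrays. Of these, 1 was nearly equal at 5.48 with analogue 3 and 5.55 with DMSO, 1 was nearly equal at 3.37 with analogue 3 and 3.35 with DMSO, and 1 was higher with analogue 3, at 3.09, against 2.33 with DMSO. The difference of ATF5 thus rests on 1 probe set.

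The C/EBP factors differed by unequal amounts. CEBPG, the short C/EBP protein that pairs with ATF4 on composite elements, had 2 probe sets above the floor. The brightest read 49.3 with analogue 3 and 140.2 with DMSO, a 2.85-fold lower value and a difference of -1.51. The other read 49.5 with analogue 3 and 115.2 with DMSO, 2.33-fold lower, a difference of -1.22. CEBPG was the only member with 2 probe sets that both arrays placed above the floor, and both lay past 2-fold in the same direction.

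CEBPB, an activator of inflammatory and metabolic genes that also responds to stress, read 377.5 with analogue 3 and 744.2 with DMSO in its only probe set. That was 1.97-fold lower, a difference of -0.98, just short of the 2-fold threshold. CEBPD, induced in inflammation, read 17.4 with analogue 3 and 28.3 with DMSO, 1.63-fold lower, and its second probe set was far under the floor, at 0.333 with analogue 3 and 0.340 with DMSO. Of the other C/EBP genes of the array, CEBPA (0.946 with analogue 3 and 2.10 with DMSO) and CEBPE (1.20 with analogue 3 and 0.956 with DMSO) were under the floor on both arrays.

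TRIB3, CHAC1 and NUPR1 are induced downstream of ATF4 and CHOP. TRIB3 is a pseudokinase that binds ATF4, CHOP and the kinase AKT, and it acts as a brake on ATF4. Its brightest probe set read 93.6 with analogue 3 and 430.3 with DMSO, 4.60-fold lower, a difference of -2.20. In the same ranking by floored difference, TRIB3 stood at rank 25 among the measured genes. Its other probe set read 3.52 with analogue 3 and 18.8 with DMSO, at least 2.35-fold lower.

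CHAC1, an enzyme that degrades glutathione, read 3.48 with analogue 3 and 22.7 with DMSO in its only probe set, at least 2.84-fold lower. NUPR1, a small nuclear stress protein, read 0.925 with analogue 3 and 15.05 with DMSO in its only probe set. The analogue 3 value lay below the array median, so with the floor NUPR1 was at least 1.88-fold lower. Without a floor the ratio of its intensities would be 16.3-fold, the widest of the group, but values near the array median carry little signal.

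**Figure D2:**
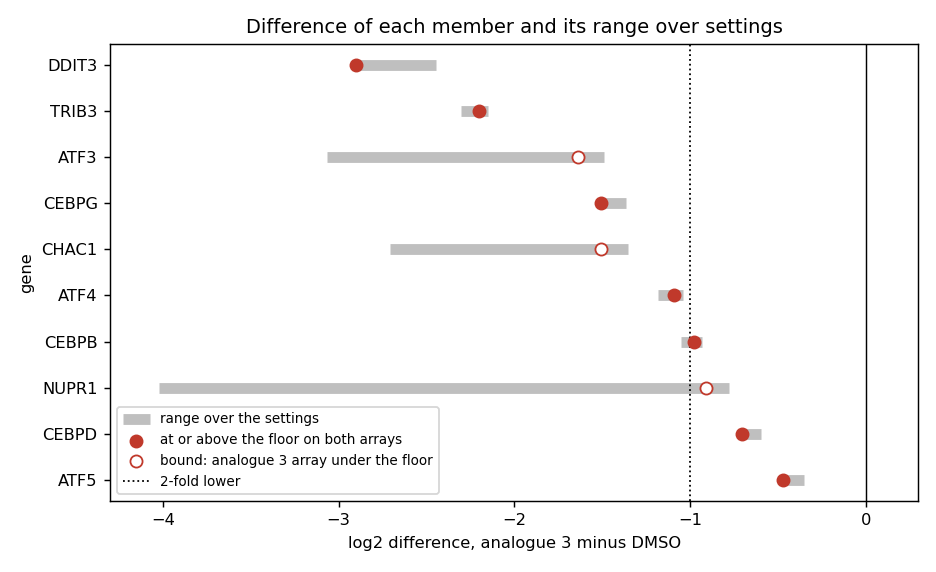
Log2 difference, analogue 3 minus DMSO, of each member's brightest probe set, with filled points where both arrays reached the floor, open points for bounds, and grey bars for the range over the alternative settings. All values lie below 0, those of ATF4, CEBPB and NUPR1 lie close to the dotted line of 2-fold, and the wide bars belong to the 3 bounds ATF3, CHAC1 and NUPR1.

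Composite elements read by ATF4 with C/EBP partners share the core TGATGNAA, and stretches of 3 members are shown because they hold it in capitals, in either orientation. Promoter windows of 250 bases before to 50 after an annotated start were given for 8 members, and not for CEBPD and NUPR1. These 8 had 1 to 3 windows each, whereas all 27305 genes with a window shared 35116 windows. A gene with more windows has more sequence to match, so the shares of genes below are not like for like. The core was found in ATF3, CEBPG and CHAC1, and on either strand in 4.46% of the 27305 genes and 3.62% of all windows. In CHAC1 it lay 209 bases before the start, as TTGCATCA (chr15:40953221-40953470, plus strand). In ATF3 it lay 191 bases before the upstream start (chr1:212565157-212565406, plus strand). In CEBPG it lay 42 bases before the second annotated start, where a short stretch is given (chr19:33374060-33374089, plus strand). All 3 are from RefSeq, GRCh38.p14.
CHAC1: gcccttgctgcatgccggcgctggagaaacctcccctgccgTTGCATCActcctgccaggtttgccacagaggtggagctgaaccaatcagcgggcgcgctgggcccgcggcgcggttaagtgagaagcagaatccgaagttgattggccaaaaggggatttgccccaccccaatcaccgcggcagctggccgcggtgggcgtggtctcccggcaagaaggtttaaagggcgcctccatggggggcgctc
ATF3: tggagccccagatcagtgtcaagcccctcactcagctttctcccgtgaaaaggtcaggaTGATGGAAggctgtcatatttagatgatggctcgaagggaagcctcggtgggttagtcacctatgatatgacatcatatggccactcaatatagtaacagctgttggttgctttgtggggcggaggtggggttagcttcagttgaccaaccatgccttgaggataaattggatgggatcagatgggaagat
CEBPG: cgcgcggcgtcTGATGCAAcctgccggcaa
The full cyclic AMP response element TGACGTCA and the C/EBP site TTGCGNAA, searched on both strands, were in none of the 8 members' windows, against 2.25% and 1.08% of the genes with a window. The letters CCACG, part of the endoplasmic reticulum stress element, were in 5 of the 8, ATF4, ATF5, CEBPG, TRIB3 and CHAC1, against 42.1% of genes. Its first letters CCAC are also those that end the spaced motif of DDIT3, and a match to letters is no evidence of binding.

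**Figure D3:**
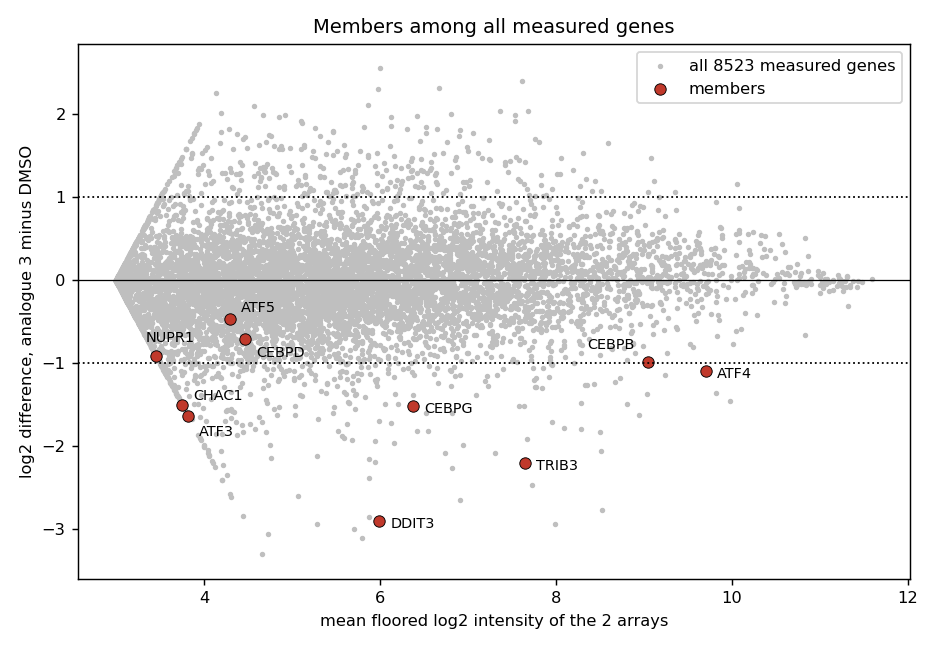
Log2 difference, analogue 3 minus DMSO, against the mean floored log2 intensity of the 2 arrays for all 8523 measured genes (grey) and the members (red), with dotted lines at 2-fold. DDIT3 at -2.90 and TRIB3 at -2.20 lie near the lower edge of the cloud, ATF4 and CEBPB lie at the high end of the intensity axis near -1, and ATF3, CHAC1 and NUPR1 lie on the slanted edge that the floor draws.

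Upstream of ATF4, most transcripts of the eIF2 machinery differed by less than 2-fold, whereas kinase activity and eIF2 phosphorylation were not measured. Of 16 measured genes for eIF2 kinases, eIF2, its exchange factor eIF2B and their regulators, 1 was at least 2-fold lower and none 2-fold higher. The shares over all measured genes were 3.92% lower and 3.74% higher. The median of the 16 was -0.21. The kinase gene EIF2AK2, which responds to double-stranded RNA, read 73.1 with analogue 3 and 116.5 with DMSO, 1.59-fold lower. EIF2AK3, the reticulum sensor PERK, read 29.6 with analogue 3 and 39.1 with DMSO, EIF2AK4, the amino acid sensor GCN2, read 41.3 with analogue 3 and 47.1 with DMSO, and EIF2AK1, the haem-regulated kinase, read 59.0 with analogue 3 and 50.1 with DMSO. All 3 differed by less than 1.5-fold. The eIF2B subunit gene EIF2B3 was 1.69-fold higher. The gene past 2-fold was PPP1R15A, which encodes the stress-induced phosphatase subunit GADD34 and is itself a target of ATF4 and CHOP, at 9.73 with analogue 3 and 35.1 with DMSO, 3.61-fold lower.

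Downstream, 38 of 42 listed ATF4 target genes outside the members were measured. Of these, 29 were at least 2-fold lower, against 3.92% of all measured genes, and 0 at least 2-fold higher, against 3.74%. The median difference of the 38 was -1.39, and 37 lay below 0, against 55.5% of all measured genes. Of the 38, 6 were bounds measured only through DMSO, so a difference below 0 was fixed for them by the filter. Among the other 32, 23 were at least 2-fold lower, against 3.46% of genes measured on both arrays, with a median of -1.26. Of the 32, 31 lay below 0, against 4201 of 7737 genes measured on both arrays. The gluconeogenic enzyme gene PCK2 was 8.62-fold lower, at 18.95 with analogue 3 and 163.4 with DMSO. Asparagine synthetase, ASNS, was 7.68-fold lower and NIBAN1 was 7.28-fold lower. These 3 were named as the largest differences of a list chosen with earlier results of these data known. They were of the size of that of DDIT3. The median of the 32 genes on both arrays was -1.26, beside -1.09 for ATF4 mRNA itself.

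The 5 measured genes linked to CHOP in cell death differed less than DDIT3 did, as did most measured genes. Of 8 listed genes, 7 had a probe set with 1 gene symbol, and 2 of these were under the floor on both arrays. PPP1R15A was the only one of the 5 past 2-fold, beside 3.92% of all measured genes lower. The median was -0.58, and all 5 lay below 0, against 55.5% of all measured genes. The death receptor genes TNFRSF10A, at 91.9 with analogue 3 and 137.2 with DMSO, and TNFRSF10B, at 345.6 with analogue 3 and 514.0 with DMSO, were each 1.49-fold lower, as was the BH3-only gene PMAIP1. The oxidase gene ERO1A was 1.09-fold lower.

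The ATF6 and IRE1-XBP1 arms are the other branches of the unfolded protein response. Of 16 genes, all measured on both arrays, 4 were at least 2-fold lower, against 3.46% of all genes measured in that way. None was 2-fold higher, against 3.74% of all measured genes, and 14 of the 16 lay below 0, against 55.5%. Their median was -0.28, beside -1.09 for the 7 members that both arrays measured. The 4 were the co-chaperone gene DNAJB9 (11.8 with analogue 3 and 39.6 with DMSO, 3.36-fold lower), the IRE1 gene ERN1 (3.15-fold lower), the reticulum chaperone HSPA5 (2.56-fold lower) and the bZIP factor XBP1 (34.7 with analogue 3 and 77.3 with DMSO, 2.23-fold lower). The difference between these lists was not tested.

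Among 23 other measured bZIP factor genes, 5 were at least 2-fold lower, against 3.92% of all measured genes. None was at least 2-fold higher, against 3.74%, and the median was -0.67. Both arrays measured 21 of the 23, also with a median of -0.67. Of these 21, 4 were at least 2-fold lower, against 3.46% of all genes measured in that way. JDP2, a dimer partner of ATF3 and JUN that also stands in the ATF4 target list, read 2.97 with analogue 3 and 29.8 with DMSO, at least 3.73-fold lower. JDP2 was measured only through the DMSO array, so its direction was fixed by the filter. JUND, an AP-1 subunit, was 2.42-fold lower, and XBP1 is given above. Of the 23, 19 lay below 0, against 55.5% of all measured genes, and 4 lay above 0. Of the 21 on both arrays, 18 lay below 0, against 4201 of 7737 genes measured in that way. Among the FOS and JUN genes, the differences were 0.59 for FOSL2, 0.24 for FOSL1, -0.15 for JUN, -0.71 for JUNB and -1.27 for JUND. FOS and FOSB were under the floor on both arrays.

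Close relatives of CHAC1 and TRIB3 differed in direction, and no relative of NUPR1 had a value. CHAC2, a second glutathione-degrading enzyme related to CHAC1, was 2.21-fold higher, at 69.4 with analogue 3 and 31.4 with DMSO. GGCT, which acts on gamma-glutamyl dipeptides, was 1.62-fold higher. TRIB1, a pseudokinase related to TRIB3, was 1.99-fold lower, at 35.3 with analogue 3 and 70.3 with DMSO, and TRIB2 was under the floor on both arrays.

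**Figure D4:**
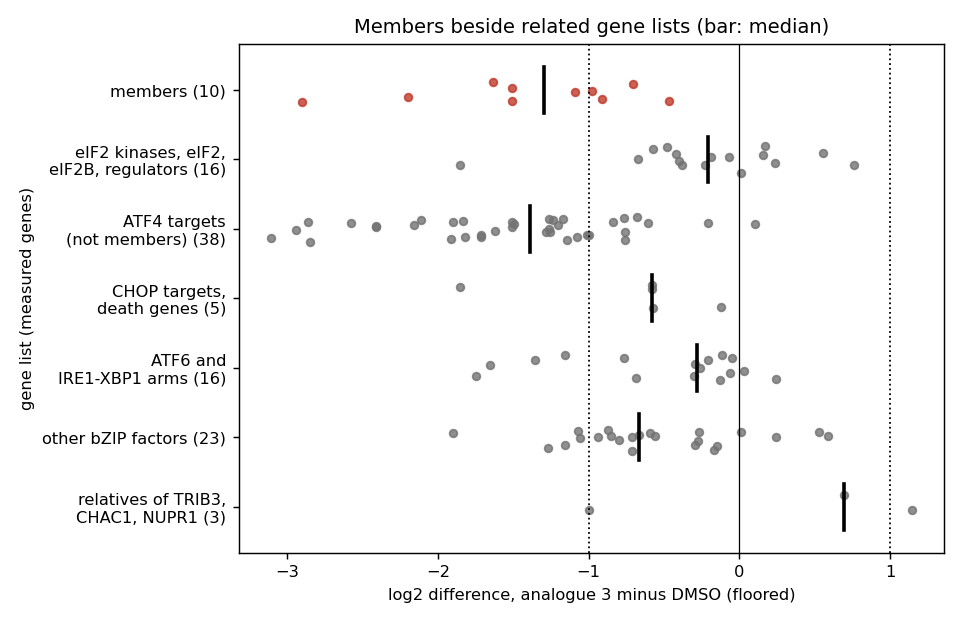
Floored log2 difference, analogue 3 minus DMSO, of every measured member (red) and of every measured gene of 6 related lists (grey), with the number of genes in brackets, a bar at each median and dotted lines at 2-fold. The medians of the members (-1.30) and of the ATF4 targets (-1.39) lie past the 2-fold line. Both of these lists hold bounds, and without the bounds their medians are -1.09 and -1.26. The medians of the eIF2 machinery (-0.21) and of the ATF6 and IRE1-XBP1 arms (-0.28), which hold no bounds, lie between that line and 0.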

How the data were processed

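One CL1-5 culture per group was measured on 1 Affymetrix Human Genome U133 Plus 2.0 array. The intensity values the authors deposited are linear and were made with GCRMA, per the submitters' processing notes; its version is not given in the sources used here. Each array had a median of 1, so a further scaling was read from the values. Gene names came from the platform annotation held by GEO, in which 41097 of 54675 probe sets carried 1 gene symbol, 1801 several, and 11777 were not listed. Of the 41097, 41043 matched RefSeq (GRCh38.p14) by gene number.

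Values were log2-transformed and floored at log2 3, since a floor of log2 5 used in earlier work on these data kept about 13% of probe sets. The brightest probe set represented a gene, and 2-fold was the threshold. The steps were tested on simulated data with changes planted only in genes at log2 5 or more on both arrays. The simulated noise was the spread between probe sets, so genes near the floor and error between cultures were not covered. The members, lists and floor were chosen with earlier results of these data known. All members are named, with the 3 genes of largest absolute difference in each list, plus the eIF2 kinases, PPP1R15A and XBP1. TNFRSF10B, ERO1A, FOSL2, FOSL1, JUN, JUNB, FOS, FOSB, TRIB2, CEBPA and CEBPE were added after their values were seen. Alternatives were other floors, scalings, probe set choices and thresholds. With 1 array per group, the number of arrays limits the precision. Python 3.11.15, pandas 2.3.3 and statsmodels 0.14.6 were used.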

Additional observations from a re-analysis of the deposited data

How the results depend on the processing

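With 1 array per group, no setting gives a test, and no paired analysis was possible because each group held 1 array. ATF4, CEBPB, CEBPG, TRIB3 and DDIT3 lay below 0 in all 9 settings of floor, scaling and probe set, and ATF5 and CEBPD in the 6 that measured them. The sign of ATF3, CHAC1 and NUPR1, and with a floor of log2 5 that of DDIT3, is fixed by the filter wherever a floor leaves only the DMSO array above it, and shows no stability there. The count of members at least 2-fold lower was 4 of 5 measured with a floor of log2 5 (2.67% of all measured genes), 5 of 7 with the median over probe sets (3.40%), 5 of 6 without _s_at and _x_at probe sets (4.16%) and 6 of 10 after median centring (3.40%). It was 7 of 10 with a floor of log2 1 (5.25%), no floor (3.66%), loess removal (3.14%) or quantile normalization (3.53%). Of 10, it was 9 at a 1.5-fold and 3 at a 3-fold threshold, with 12.9% and 1.06% of all measured genes lower and 9.62% and 0.845% higher. With no floor 2.40% were higher. The members' median was -1.85 both with a floor of log2 1 and with no floor, because ATF3, CHAC1 and NUPR1 then had differences of -3.07, -2.71 and -2.91 (floor of log2 1) or -4.02 (no floor). ATF3, ATF5, CEBPD and NUPR1 have no value above the floor without _s_at probe sets. Signal near the floor limits the values of ATF3, CHAC1 and NUPR1.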

Other observations

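The composite element core TGATGNAA was also set against the differences of all measured genes with a promoter window, a comparison chosen after the members' promoters had been read. Of 196 measured genes that hold the core, 14.3% were at least 2-fold lower with analogue 3 and 4.59% at least 2-fold higher. Of 6953 measured genes without it, 3.65% were at least 2-fold lower and 3.78% at least 2-fold higher. Outside the members and the ATF4 target list, 14 of 181 genes with the core (7.73%) were at least 2-fold lower and 9 (4.97%) at least 2-fold higher. Of the ATF4 target genes, 12 measured ones held the core, of which 11 (91.7%) were at least 2-fold lower, with a median log2 difference of -1.50. The 19 without it had 15 (78.9%) at least 2-fold lower and a median of -1.62. These shares describe 2 arrays and 1 short motif, and no test was made.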
